A study of Mus musculus with 6 samples.

Results

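The genes described here are Trp53, which encodes the transcription factor p53, and 9 genes known as its direct targets: Mdm2, Ccng1, Bax, Zmat3, Phlda3, Sesn2, Trp53inp1, Eda2r and Aen. They were found by gene name in the deposited count table, where each of the 10 had 1 row among 55804 rows. The RNA came from C2C12, a line of mouse muscle precursor cells that stop dividing and form multinucleate myotubes in low serum, taken 3 days after the switch to differentiation medium with horse serum. The 3 Prr33-gRNA libraries came from cells in which Prr33 had been targeted with a CRISPR/Cas9 guide RNA (genotype label PRR33 knocked down), and the 3 Ctrl-gRNA libraries came from cells with a control guide (genotype label WT). The labels name no more than 1 line per guide, so an effect of the guide and a difference between derived lines cannot be told apart, and they do not say whether libraries with 1 guide are separate cultures. The p-values therefore set the group difference only against the scatter among these libraries, and that scatter may be technical. The comparison asks how these genes differ between the targeted line and the control line during differentiation.

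p53 is a transcription factor that is held at a low level by the ubiquitin ligase Mdm2, itself a p53 target, and that accumulates when DNA is damaged or cells are otherwise stressed. It binds a pair of similar 10-base sequences (decamers) near its targets, which encode proteins that stop the cell cycle, start apoptosis, restrain Akt and mTOR signalling, or feed back on p53. In myoblasts several of these targets, Cdkn1a (p21) among them, are also switched on by the muscle differentiation programme, and p53 itself is regulated largely at the level of protein, which RNA counts do not show.

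Total counts ran from 17412383 to 19471762 in the Prr33-gRNA libraries and from 17006381 to 19118010 in the Ctrl-gRNA libraries. Prr33 had 793, 829 and 848 counts in the Prr33-gRNA libraries, against 1137, 990 and 913 in the Ctrl-gRNA libraries, with a log2 fold change of -0.42 (SE 0.06; edgeR adjusted p = 1.37e-06). The labelled cell type was checked against its markers: each of 10 skeletal muscle markers was detected in both groups, and 1 was higher (Ckm) and 9 were lower in Prr33-gRNA. Their summed level was 19097 to 19935 CPM (counts scaled to a common library size) in Prr33-gRNA and 31438 to 31900 CPM in Ctrl-gRNA. Of 8 fibroblast markers, 6 were tested, of which Col1a2 rose (log2 fold change 2.63) and 5 fell, Col1a1 the furthest (-4.26), with summed levels of 826 to 893 CPM in Prr33-gRNA and 1291 to 1395 CPM in Ctrl-gRNA. Beside these muscle and fibroblast counts, 25.5% of all tested genes were higher and 26.6% were lower. The 5 macrophage markers summed to 0.851 to 1.55 CPM in Prr33-gRNA and 1.13 to 1.82 CPM in Ctrl-gRNA, with Ptprc and Adgre1 at 0 counts in every library. Of them Cd68 was abundant enough to be tested and did not pass, and the summed level of 4 adipocyte markers was at most 0.0541 CPM in any library. The 5 endothelial markers summed to 1.66 to 2.56 CPM in Prr33-gRNA and 2.56 to 3.64 CPM in Ctrl-gRNA. The part of the muscle and fibroblast differences in the results below was not tested. In bulk RNA, fewer cells of a type and less RNA per cell cannot be told apart.

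The promoter sequences below are shown because p53 acts through its binding decamers and because, of the 2 genes with a full site in this window, Ccng1 rose and Bax did not pass the test. Of the 10 genes, 8 were found in the RefSeq promoter table (GRCm38.p6), which gives 250 bases before and 50 bases after an annotated start. Zmat3 and Trp53inp1 had no entry. A full site was counted as a pair of decamers separated by 0 to 13 bases, with at most 2 mismatches to the p53 consensus over the 20 bases and with the central C and G of each decamer intact. Where several pairs in a window met this rule, the pair with the fewest mismatches is marked, and among equals the one with the shortest spacer. Capitals mark the decamers of the full site. The Ccng1 window is chr11:40755237-40755536 (minus strand), with the site starting 195 bases before the start, and the Bax window is chr7:45466849-45467148 (minus strand), with the site starting 201 bases before it.
Ccng1: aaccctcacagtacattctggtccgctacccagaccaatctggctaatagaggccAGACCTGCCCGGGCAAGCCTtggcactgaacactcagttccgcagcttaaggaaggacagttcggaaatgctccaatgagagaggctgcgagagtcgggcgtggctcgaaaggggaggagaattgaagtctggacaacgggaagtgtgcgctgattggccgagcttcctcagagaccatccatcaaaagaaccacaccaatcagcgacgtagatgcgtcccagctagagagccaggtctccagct
Bax: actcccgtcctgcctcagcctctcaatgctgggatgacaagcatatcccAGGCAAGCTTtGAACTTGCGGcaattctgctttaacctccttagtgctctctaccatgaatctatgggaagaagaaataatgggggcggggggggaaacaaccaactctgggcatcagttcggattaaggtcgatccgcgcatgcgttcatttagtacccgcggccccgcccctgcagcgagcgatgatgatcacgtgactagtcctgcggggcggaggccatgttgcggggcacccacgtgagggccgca

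The Ccng1 site had 1 mismatch and no spacer, and the Bax site had 2 mismatches and a spacer of 1 base. Each of these windows held 1 further pair that overlaps the marked one, with 2 mismatches and a spacer of 5 bases. A single decamer that matched the p53 consensus with no mismatch, searched on both strands (the consensus reads the same on either), was present in the windows of 5 of the 8 genes, namely Ccng1, Bax, Trp53, Mdm2 and Aen. It was absent from the windows of Phlda3, Sesn2 and Eda2r, which says only that it is not in these 300 bases. Among all 32817 promoter windows, 8.36% held such a decamer and 4.09% held a full site. Counted by window, 6 of the 9 windows of the 8 genes held such a decamer and 2 held a full site. Both Aen windows hold the same decamer. The decamers of Trp53, Mdm2 and Aen are shown in capitals with 10 bases on either side, and start 75, 186 and 121 bases before the start (for Aen, of the downstream one of its 2 windows).
Trp53: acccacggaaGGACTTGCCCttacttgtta
Mdm2: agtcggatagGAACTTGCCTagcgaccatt
Aen: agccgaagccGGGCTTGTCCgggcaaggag

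Of the 10 genes 3 were higher and 3 were lower in Prr33-gRNA, and 4 did not pass the test (edgeR quasi-likelihood test, Benjamini-Hochberg adjusted over 14651 genes, adjusted p below 0.05). Ccng1 and Zmat3 had the largest rises of the 10 and Sesn2 the deepest fall. The transcript of p53 itself had 0.929 times the control level and did not pass. Over all tested genes 52.1% passed, 25.5% as higher and 26.6% as lower, so 6 of 10 is close to the share of the whole transcriptome. The median log2 fold change of the 10 was -0.06, with a range of -0.76 to 1.04, against a median of -0.00 over all tested genes, and the median size of the change without its sign was 0.27 in both. The libraries of the groups did not overlap for 8 of the 10 genes, against 57.9% of all tested genes. Of those 8 genes 3 were higher (28.6% of all tested genes) and 5 were lower (29.3%).

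**Figure D1:**
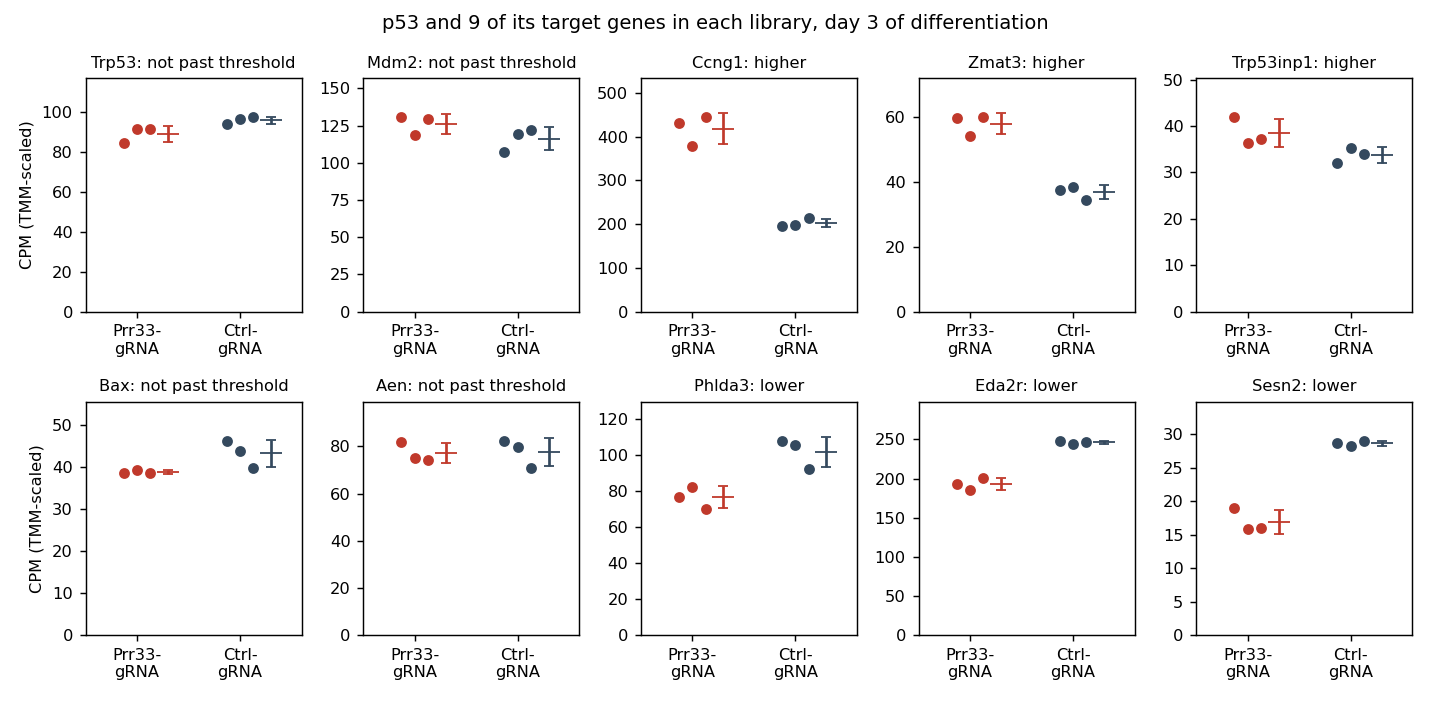
Level of each gene in each library in CPM after TMM scaling (vertical axes start at 0), with Prr33-gRNA libraries in red on the left and Ctrl-gRNA libraries in dark blue on the right. Points are libraries in replicate order, and the horizontal mark with its bar is the mean with 1 SD (n = 3). Ccng1 and Zmat3 are higher and Sesn2, Eda2r and Phlda3 lower in each Prr33-gRNA library than in any Ctrl-gRNA library, whereas Mdm2 and Aen overlap.

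Trp53 and its regulator Mdm2 were close to their control levels. Trp53 (ENSMUSG00000059552, chromosome 11, 69580359 to 69591873, plus strand, mm10) had 84.2, 91.3 and 91.2 CPM in the Prr33-gRNA libraries, against 93.7, 96.3 and 97.1 CPM in the Ctrl-gRNA libraries. Each Prr33-gRNA library lay below each Ctrl-gRNA library, but by little. The log2 fold change was -0.11 with a 95% interval of -0.21 to 0.00 (edgeR adjusted p = 0.0902). Mdm2 (chromosome 10, 117688875 to 117710758, minus strand) had 131, 118 and 130 CPM in Prr33-gRNA, against 107, 119 and 122 CPM in Ctrl-gRNA. The groups overlapped, since Prr33-gRNA replicate 2 lay within the control range. Its log2 fold change of 0.12 (95% interval 0.01 to 0.23) did not pass (edgeR adjusted p = 0.0604). It passed without Ctrl-gRNA replicate 3 (0.16; edgeR adjusted p = 0.0214), without Prr33-gRNA replicate 2 (0.17; edgeR adjusted p = 0.0126) with libraries scaled by size alone (0.21; edgeR adjusted p = 0.00118) and with no filter on low counts (0.13; edgeR adjusted p = 0.0398). The ratio of Mdm2 to Trp53 in FPKM (counts per length and library size), which does not depend on library scaling, was 1.13 ± 0.101 in Prr33-gRNA and 0.965 ± 0.0460 in Ctrl-gRNA (SD, n = 3 each). That ratio was higher in each Prr33-gRNA library than in each Ctrl-gRNA library. The pair was chosen after its values were seen, so this is a description, with no test.

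Ccng1, Zmat3 and Trp53inp1 were higher in Prr33-gRNA. Ccng1 encodes cyclin G1, which recruits a phosphatase to Mdm2 and so feeds back on p53. Ccng1 (chromosome 11, 40748552 to 40755311, minus strand) had 432, 379 and 444 CPM in Prr33-gRNA, against 197, 199 and 213 CPM in Ctrl-gRNA. The lowest Prr33-gRNA library was well above the highest Ctrl-gRNA library. The level was 2.06-fold the control (log2 fold change 1.04, SE 0.05; edgeR adjusted p = 7.06e-16), and the size of the change exceeded that of 89.5% of all tested genes. Zmat3, for a zinc finger protein that binds RNA and affects the splicing and stability of its targets, lies on chromosome 3 (32334792 to 32366014, minus strand). It had 59.6, 54.2 and 59.8 CPM in Prr33-gRNA, against 37.4, 38.5 and 34.4 CPM in Ctrl-gRNA (log2 fold change 0.65, SE 0.07; edgeR adjusted p = 3.40e-10). The groups did not overlap, and the fold was 1.57.

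Trp53inp1 encodes a stress-induced protein that acts in p53 activation in the nucleus and in autophagy. The gene (chromosome 4, 11156431 to 11174379, plus strand) had 41.9, 36.4 and 37.3 CPM in Prr33-gRNA, against 32.0, 35.2 and 34.0 CPM in Ctrl-gRNA. The groups did not overlap, but the closest libraries were nearly level. It rose by 0.19 on the log2 scale (SE 0.07; edgeR adjusted p = 0.0302). The call was lost without Prr33-gRNA replicate 1 (0.13; edgeR adjusted p = 0.206), the highest library, and without Ctrl-gRNA replicate 1 (0.16; edgeR adjusted p = 0.131), the lowest. It was also lost with DESeq2 (DESeq2 adjusted p = 0.0605).

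Neither Bax nor Aen passed the test. Bax encodes the protein that opens the outer mitochondrial membrane. Bax (chromosome 7, 45461697 to 45466898, minus strand) had 38.6, 39.3 and 38.6 CPM in Prr33-gRNA, against 46.1, 43.7 and 39.8 CPM in Ctrl-gRNA. The groups did not overlap, although Ctrl-gRNA replicate 3 stood just above the Prr33-gRNA libraries. The log2 fold change was -0.16 (95% interval -0.30 to -0.02; edgeR adjusted p = 0.0571), close to the threshold. It passed without Ctrl-gRNA replicate 3 (-0.21; edgeR adjusted p = 0.0186). It also passed with a minimum of 1 CPM (0.0497), with only protein-coding genes (0.0478) and without chromosome 14 (0.0395), all edgeR adjusted p. Of the 1576 exonic bases of Bax in GENCODE M21, 192 are shared with the readthrough gene Gm45808, which had 0 counts in every library, so reads there may have been set aside in counting. Aen, for a nuclease of apoptotic cells, lies on chromosome 7 (78895854 to 78911209, plus strand). It had 82.0, 74.9 and 74.3 CPM in Prr33-gRNA, against 82.2, 79.9 and 70.7 CPM in Ctrl-gRNA. The groups overlapped throughout, and the log2 fold change was -0.01 (95% interval -0.13 to 0.11; edgeR adjusted p = 0.894).

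Phlda3, Eda2r and Sesn2 were lower in Prr33-gRNA. Phlda3 encodes a pleckstrin homology domain protein that competes with Akt for membrane lipids. Phlda3 (chromosome 1, 135766119 to 135769136, plus strand) had 76.9, 82.6 and 70.2 CPM in Prr33-gRNA, against 108, 105 and 92.3 CPM in Ctrl-gRNA (log2 fold change -0.41, SE 0.06; edgeR adjusted p = 2.34e-06). Eda2r, the receptor for the A2 form of the TNF-like ligand ectodysplasin, lies on chromosome X (97333840 to 97377216, minus strand). It had 193, 185 and 201 CPM in Prr33-gRNA, against 248, 244 and 247 CPM in Ctrl-gRNA (log2 fold change -0.35, SE 0.04; edgeR adjusted p = 3.73e-08). In both genes the groups did not overlap. They were well separated for Eda2r, but closer for Phlda3, with 82.6 CPM in the highest Prr33-gRNA library and 92.3 CPM in the lowest Ctrl-gRNA library. The Eda2r transcript was abundant, yet the ligand gene Eda had 6 counts over the Prr33-gRNA libraries and 1 over the Ctrl-gRNA libraries. The related receptor gene Edar and its adaptor gene Edaradd had 0 counts in every library. Tnfrsf19, also a receptor of this family, had only 8, 6 and 5 counts in Prr33-gRNA, against 32, 37 and 49 counts in Ctrl-gRNA. It fell (log2 fold change -2.74, SE 0.39) but lies on chromosome 14, where the median over 400 tested protein-coding genes was -0.90.

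Sesn2 encodes sestrin 2, which senses leucine and restrains mTORC1, and which is also induced by the transcription factor Atf4 in the integrated stress response. Sesn2 (chromosome 4, 132492032 to 132510501, minus strand) had 19.0, 15.8 and 16.0 CPM in Prr33-gRNA, against 28.7, 28.2 and 29.0 CPM in Ctrl-gRNA. Every Prr33-gRNA library was below every Ctrl-gRNA library. The level was 0.592 times the control (log2 fold change -0.76, SE 0.09; edgeR adjusted p = 9.75e-09).

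**Figure D2:**
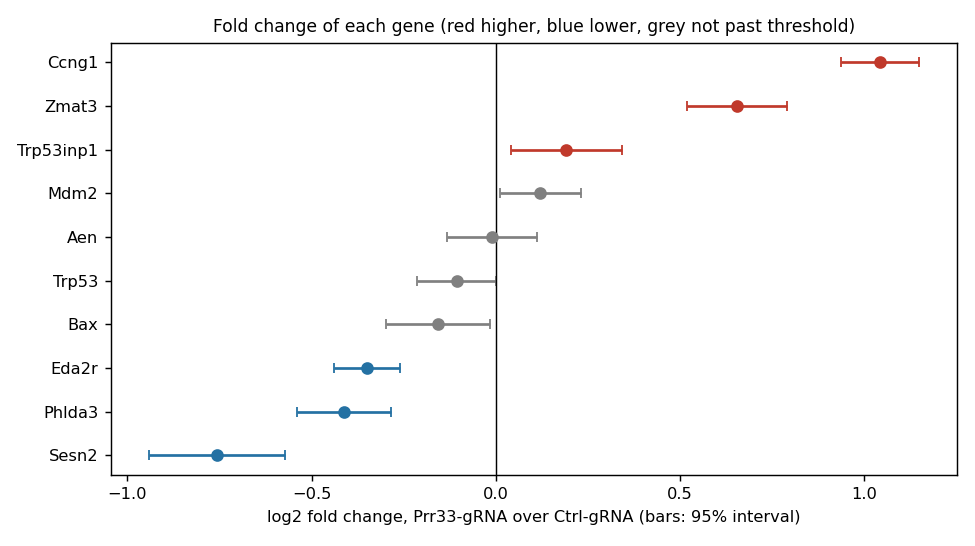
Log2 fold change of each gene, Prr33-gRNA over Ctrl-gRNA, with its 95% interval from the edgeR fit (n = 3 libraries per group). Red points are higher, blue points lower and grey points did not pass at an adjusted p below 0.05; the genes run from Ccng1 at 1.04 to Sesn2 at -0.76 and fall on both sides of 0.

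Levels per length differed widely among the 10 genes, and their order changed at the top, among Mdm2, Bax and Trp53, and at the bottom. In the authors' FPKM values Ccng1 ranked first in Prr33-gRNA at 119 ± 9.68 FPKM, and second in Ctrl-gRNA at 57.4 ± 2.71 FPKM (SD, n = 3 each). Phlda3 ranked second in Prr33-gRNA at 49.0 ± 4.06 FPKM, and first in Ctrl-gRNA at 64.8 ± 5.12 FPKM, where its libraries overlapped those of Ccng1. Eda2r stood at rank 3 in both groups. Mdm2, Bax and Trp53 lay close together, at 24.7, 24.6 and 21.9 FPKM in Prr33-gRNA and at 22.7, 27.2 and 23.5 FPKM in Ctrl-gRNA. Mdm2 and Bax overlapped in Prr33-gRNA, and Trp53 and Mdm2 overlapped in Ctrl-gRNA. Aen stood at rank 7 in both groups. Trp53inp1 stood at rank 8 in Prr33-gRNA and rank 9 in Ctrl-gRNA. Sesn2 stood at rank 10 in Prr33-gRNA at 4.86 ± 0.521 FPKM, overlapping Zmat3, and at rank 8 in Ctrl-gRNA at 8.18 ± 0.129 FPKM. Zmat3 stood at rank 9 in Prr33-gRNA at 5.04 ± 0.270 FPKM and rank 10 in Ctrl-gRNA at 3.19 ± 0.174 FPKM. The 9 targets summed to 268 to 286 FPKM in the Prr33-gRNA libraries and 239 to 246 FPKM in the Ctrl-gRNA libraries. Of that sum, Ccng1 alone took 40.2% to 44.6% in the Prr33-gRNA libraries and 22.6% to 25.3% in the Ctrl-gRNA libraries.

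**Figure D3:**
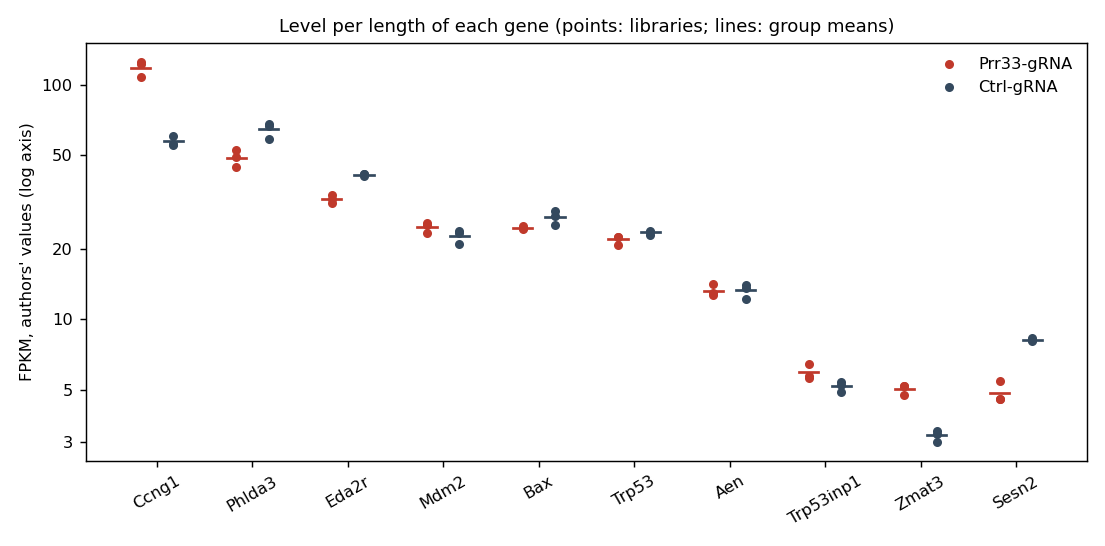
Level per length of each gene in the authors' FPKM values on a log axis, in the order of the Prr33-gRNA means, with Prr33-gRNA in red on the left and Ctrl-gRNA in dark blue on the right of each gene. Points are libraries and short lines group means (n = 3 each); Ccng1 stands at 119 FPKM in Prr33-gRNA and 57.4 FPKM in Ctrl-gRNA, while Trp53 stands at 21.9 and 23.5 FPKM.

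Relatives of several of the 10 genes were compared next. Among the sestrins, Sesn3 rose to 41.8, 33.4 and 40.8 CPM in Prr33-gRNA, against 15.4, 17.2 and 14.9 CPM in Ctrl-gRNA (log2 fold change 1.29, SE 0.09; edgeR adjusted p = 7.35e-14). Sesn1, a p53 target like Sesn2, rose by 0.31 (edgeR adjusted p = 0.00105). Both moved in the direction opposite to Sesn2. The ratio of Sesn3 to Sesn2 in FPKM was 0.520 ± 0.0526 in Prr33-gRNA and 0.126 ± 0.0116 in Ctrl-gRNA (SD, n = 3 each). This pair was chosen after its values were seen, as a gene that rose over one that fell, so the ratio is a description. For cyclin G1, the relative Ccng2 had a log2 fold change of 0.14 and did not pass (edgeR adjusted p = 0.0551). Phlda1 (-0.04) and Trp53inp2 (0.01) did not pass, and Phlda2 and Zmat4 had 0 counts. Zmat1 had a log2 fold change of -0.39 at an adjusted p of 0.0480 in edgeR, which was lost with DESeq2 (DESeq2 adjusted p = 0.0875) and without any 1 of Ctrl-gRNA replicates 1 and 3 and Prr33-gRNA replicates 1 and 2 (edgeR adjusted p from 0.115 to 0.229). Isg20, which lies just downstream of Aen on chromosome 7 and encodes an interferon-induced exonuclease of the same family, fell by 1.33 (edgeR adjusted p = 1.19e-13). Isg20l2, of the same family, rose by 0.20 (edgeR adjusted p = 0.0111), and lost the call when Ctrl-gRNA replicate 1 (edgeR adjusted p = 0.050) or Prr33-gRNA replicate 3 (edgeR adjusted p = 0.0623) was left out.

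Within the p53 family itself, Trp63 fell. It encodes p63, best known from epithelia, and had 5.11, 4.26 and 6.80 CPM in Prr33-gRNA, against 25.6, 26.0 and 28.6 CPM in Ctrl-gRNA (log2 fold change -2.30, SE 0.13; edgeR adjusted p = 1.40e-16). The groups were far apart. Trp73 had 0 counts in every library. In FPKM, Trp63 stood at 0.640 in Prr33-gRNA and 3.16 in Ctrl-gRNA, below Trp53 in both groups. The genes whose log2 CPM over the 6 libraries was most like that of Trp53 were Nfkbil1, Dgka and Gins2 (Pearson r of 0.986, 0.983 and 0.980 among the 10134 genes compared, protein-coding with a mean of 5 CPM or more). These 6 libraries share the group difference, and the correlation is given only as a description.

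A wider list of 42 p53 targets also moved in both directions. Of the 38 tested, 10 rose, 14 fell and 14 did not pass, which is 63.2% called against 52.1% of all tested genes. Their median log2 fold change was -0.02. Cdkn1a, the cyclin-dependent kinase inhibitor p21, fell to 836, 785 and 822 CPM in Prr33-gRNA, against 1505, 1535 and 1469 CPM in Ctrl-gRNA (log2 fold change -0.88, SE 0.04; edgeR adjusted p = 1.43e-19). Gadd45a, for a growth arrest and DNA damage response protein, fell to 33.8, 34.1 and 30.4 CPM in Prr33-gRNA, against 116, 116 and 107 CPM in Ctrl-gRNA (log2 fold change -1.79, SE 0.06; edgeR adjusted p = 5.63e-23). Cdkn1a is also induced as myoblasts leave the cell cycle, and the muscle markers above were lower in the same libraries (summed 19097 to 19935 CPM in Prr33-gRNA and 31438 to 31900 CPM in Ctrl-gRNA), whose part in these falls was not tested. Plk2, a polo-like kinase, fell by 0.69, and Ascc3, a helicase subunit used in alkylation repair, fell by 0.54. Trim21, which is also an interferon-induced gene, fell by 2.28. Abhd4 fell by 1.06, and Abhd4 and Tnfrsf10b are the members of this list on chromosome 14; without that chromosome 12 of 36 fell and 10 rose. Susd6, an abundant target, did not pass (-0.08; edgeR adjusted p = 0.131). The 10 that rose were Sesn1, Tigar, Rrm2b, Polh, Gtse1, Ppm1d, Rps27l, Cmbl, Kitl and Dcxr, at log2 fold changes from 0.23 to 0.96, and this group was named after its values were seen. Tigar, Ppm1d, Dcxr and Polh were weaker calls, with edgeR adjusted p of 0.0367, 0.0329, 0.0212 and 0.0157. Tigar had 14.9, 10.5 and 10.6 CPM in Prr33-gRNA, against 9.25, 9.40 and 9.77 CPM in Ctrl-gRNA. Rrm2b encodes a ribonucleotide reductase subunit, Polh a translesion polymerase and Ppm1d a phosphatase that acts on p53.

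Targets with a full site in the promoter window moved both ways. Such a site was found for 5 of 35 further targets with a window. By window that is 5 of 50 (10%), against 4.09% of all 32817 windows. The median GC content was 64.2% in the windows of the further targets and 52.7% in all windows. The sites are shown to set them beside the direction of change, with decamers in capitals and the spacer in lower case. Rps27l (chr9:66946296-66946315, plus strand), Sesn1 (chr10:41887253-41887275, plus strand) and Gtse1 (chr15:85859945-85859964, plus strand) rose, with log2 fold changes of 0.39, 0.31 and 0.34. Gadd45a (chr6:67037438-67037463, minus strand) and Cdkn1a (chr17:29090906-29090937, plus strand) fell, with log2 fold changes of -1.79 and -0.88. The Cdkn1a site had 0 mismatches and a spacer of 12 bases, those of Rps27l and Gtse1 had 1 mismatch, and those of Sesn1 and Gadd45a had 2. The same Cdkn1a window also held an adjacent pair with 1 mismatch and no spacer (chr17:29090928-29090947), which shares a decamer with the marked pair and is shown on the last line. Each of the other 4 windows held 1 or 2 further overlapping pairs. Cdkn1a, Rps27l, Sesn1 and Gtse1 each have 2 windows in the table, and a site was found in 1 of them. For Cdkn1a this is the upstream window (chr17:29090729-29091028), where the marked pair starts 73 bases before the start. The downstream Cdkn1a window (chr17:29093519-29093818) held no full site.
Rps27l: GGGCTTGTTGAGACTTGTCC
Sesn1: GCGCTTGGCCttcAAGCTTGTTT
Gtse1: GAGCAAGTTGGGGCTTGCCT
Gadd45a: GGACCTGGTTggctgaGGGCTAGCCC
Cdkn1a: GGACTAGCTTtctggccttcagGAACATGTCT
Cdkn1a, adjacent pair: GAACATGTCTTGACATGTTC

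Ccng1 and Cdkn1a, both with a full site, stood in different ratios in the groups. The ratio of Ccng1 to Cdkn1a in FPKM was 0.523, 0.488 and 0.547 in the Prr33-gRNA libraries, against 0.132, 0.131 and 0.147 in the Ctrl-gRNA libraries. This ratio does not depend on how libraries were scaled, and the groups were far apart (difference of 1.92 on the log2 scale). The ratio of Zmat3 to Phlda3 was 0.104 ± 0.0134 in Prr33-gRNA and 0.0493 ± 0.00183 in Ctrl-gRNA (SD, n = 3 each). Both pairs were chosen after the values were seen, as a gene that rose over one that fell, so their separation follows from that choice and is a description, with no test.

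Genes that act on p53 moved in both directions. Of 25 tested regulators 9 rose, 6 fell and 10 did not pass, with log2 fold changes from -0.81 to 0.47. The 60% that passed is close to the 52.1% of all tested genes. Mdm4, the partner of Mdm2 in holding p53 in check, had 154, 145 and 161 CPM in Prr33-gRNA, against 160, 161 and 156 CPM in Ctrl-gRNA, and did not pass (-0.05, 95% interval -0.15 to 0.05; edgeR adjusted p = 0.382). Cdkn2a, whose Arf product inhibits Mdm2, had 0 counts in every library. Usp7, a deubiquitinase of Mdm2 and p53, rose by 0.25, the p53-binding protein gene Trp53bp1 by 0.29, the kinase gene Atr by 0.38 and the methyltransferase gene Kmt5a by 0.47. Rpl11, a ribosomal protein that binds Mdm2, fell to 182 ± 14.6 CPM in Prr33-gRNA, against 260 ± 24.6 CPM in Ctrl-gRNA (SD, n = 3 each). Rpl5, which acts with it, had a log2 fold change of -0.11 (edgeR adjusted p = 0.0204). With libraries scaled by size alone the value for Rpl5 was -0.02 (edgeR adjusted p = 0.669), and the call was also lost without Ctrl-gRNA replicate 1 or 2 or Prr33-gRNA replicate 3 (edgeR adjusted p from 0.0608 to 0.0971). Prmt5 fell by 0.81 and lies on chromosome 14. With libraries scaled by size alone 3 regulators fell.

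Bax was set beside the rest of the BCL2 family, whose members open or guard the mitochondrial membrane. Of 18 genes 12 were tested, of which 2 rose, 7 fell and 3 did not pass, against 25.5% higher and 26.6% lower among all tested genes. Their median log2 fold change was -0.21. The 2 that rose were Bid, a BH3-only activator, at 0.56, and Bcl2, the founding inhibitor of apoptosis, at 0.56. Bcl2 had 22.5, 24.1 and 26.3 CPM in Prr33-gRNA, against 16.6, 17.9 and 15.1 CPM in Ctrl-gRNA (edgeR adjusted p = 7.87e-06). Bbc3, the p53 target Puma, fell to 5.22, 5.37 and 4.60 CPM in Prr33-gRNA, against 13.9, 11.6 and 10.4 CPM in Ctrl-gRNA (log2 fold change -1.24, SE 0.15; edgeR adjusted p = 9.94e-09). The pore-forming relatives of Bax, Bak1 and Bok, fell by 0.48 and 0.43, and the inhibitor Bcl2l2, on chromosome 14, fell by 1.01. The abundant inhibitor Mcl1 fell by 0.14, a call that was lost without Ctrl-gRNA replicate 1 (edgeR adjusted p = 0.0523) and with libraries scaled by size alone (edgeR adjusted p = 0.371). The value for Bcl2l1 was -0.13 (edgeR adjusted p = 0.0487). That call was lost in 11 of the 17 alternative fits, including those without Ctrl-gRNA replicate 2 or 3 or Prr33-gRNA replicate 1 or 3 (edgeR adjusted p from 0.0531 to 0.282). The ratio of Bax to Bcl2 in FPKM was 9.97, 9.48 and 8.52 in the Prr33-gRNA libraries, against 16.1, 14.2 and 15.3 in the Ctrl-gRNA libraries. The pair was chosen after the values were seen, with Bcl2 higher and Bax lower in each Prr33-gRNA library. The separation of the ratio follows from that choice and is a description, with no test.

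Sesn2 fell together with the integrated stress response list, which covers Atf4 and genes it is known to induce. Of its 15 tested genes, Sesn2 included, 14 fell and 0 rose, against 26.6% of all tested genes that fell, and the median log2 fold change was -0.76. At an unadjusted p below 0.05 the count of rises was also 0. It was 0 with DESeq2 and limma, and 1 (Psat1) with libraries scaled by size alone. These fits use the same libraries, and the list was chosen with earlier results of these data known, so they are not independent evidence. Atf4 fell to 175, 170 and 167 CPM in Prr33-gRNA, against 265, 276 and 254 CPM in Ctrl-gRNA (log2 fold change -0.64, SE 0.05; edgeR adjusted p = 4.34e-14). Nupr1, Ddit3 (Chop), Chac1, Atf3 and Cebpb fell by 1.56, 1.16, 1.42, 2.21 and 0.97. The abundant serine synthesis genes Phgdh (-0.15; edgeR adjusted p = 0.00500) and Psat1 (0.07; edgeR adjusted p = 0.158) moved little. The call for Phgdh was lost without Ctrl-gRNA replicate 2 or Prr33-gRNA replicate 1 (edgeR adjusted p = 0.0547 and 0.0548) and with libraries scaled by size alone (0.257). Sesn2 is itself in this list and its own value is the list median, so that match is not a separate result. What lowered Sesn2 was not tested.

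**Figure D4:**
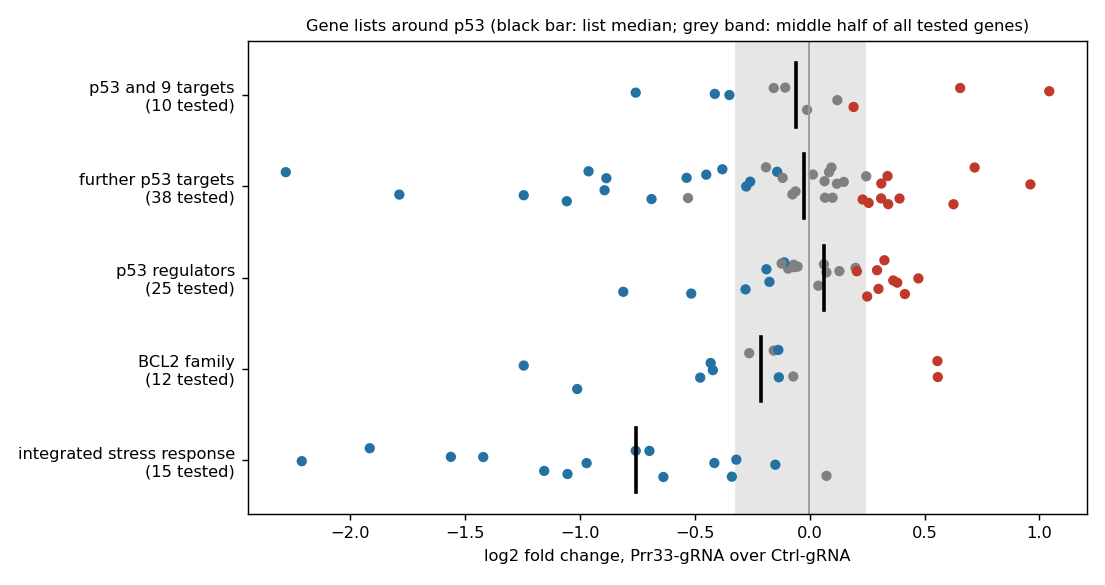
Log2 fold change, Prr33-gRNA over Ctrl-gRNA, of each tested gene in 5 lists (red higher, blue lower, grey not past the threshold; vertical scatter is only for display). Black bars are list medians and the grey band is the middle of all tested genes between the quartiles; p53 with its 9 targets, the further targets and the regulators spread on both sides of 0, while 14 of 15 genes of the integrated stress response lie below it.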

How the data were processed

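RNA-seq was carried out on 6 C2C12 libraries, 3 Prr33-gRNA and 3 Ctrl-gRNA, grouped by their titles. Per the labels' protocols, TRIzol was used for total RNA and a NEBNext Ultra kit for the libraries. The count values deposited by the authors are unnormalized whole reads per gene. CASAVA, HISAT2 2.0.5 and featureCounts 1.5.0-p3 were used with mm10, per the submitters' processing notes. Neither the strand setting nor the annotation release is given in the sources used here, and reads from an overlapping gene on the other strand cannot be told apart. FPKM values per gene were also deposited by the authors and were used for levels per length, within-library ratios and alternative tests; their library constant is not explained in those sources. All 10 genes had the same start, end and length in the files as in GENCODE M21 (GRCm38).

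The main test was edgeR 4.0.16 (quasi-likelihood, R 4.3.3) on counts after filterByExpr (14651 genes kept, all 10 among them) and TMM scaling, with no covariate. P-values were Benjamini-Hochberg adjusted over all tested genes at 0.05. SE is the absolute log2 fold change over the square root of F. CPM uses TMM-scaled library sizes, with which 3 counts correspond to 0.150 to 0.182 CPM. The test was checked on simulated counts. No library was a duplicate of another in its group (chi-square per gene of each pair 3.18 to 6.47).

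The 10 genes and the lists around them were chosen with earlier results of these data known. Named genes are the 10 genes, Prr33, up to 6 genes of lowest adjusted p and 2 of highest level in 4 lists (further targets, regulators, BCL2 family, integrated stress response), relatives, the p53 family and ectodysplasin receptor genes, the 3 genes most like Trp53, and genes sharing exons with any of the 10. Other genes are named for a group listed in full after its values were seen, a count of 5 or fewer, for an undetected gene or for chromosome 14. Ratios within libraries are given as descriptions, with no test, since the pairs of genes were chosen after their values were seen. Alternatives were RLE factors, library size alone, DESeq2 1.42.0, limma-voom and limma 3.58.1 on log2(FPKM + 1) and log2(FPKM + 0.1), no low-count filter, a minimum of 1 CPM in 3 libraries, only protein-coding genes, no chromosome 14, a replicate block, an adjusted p below 0.01 and leaving out each library. Promoter windows came from RefSeq (GRCm38.p6), and figures were drawn with matplotlib 3.10.9.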

Additional observations from a re-analysis of the deposited data

How the results depend on the processing

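Across 17 alternative fits Ccng1, Zmat3, Phlda3, Sesn2 and Eda2r passed in each with the same sign, with log2 fold changes of 1.0 to 1.13, 0.53 to 0.74, -0.48 to -0.32, -0.84 to -0.65 and -0.37 to -0.26. Trp53 passed in none (-0.12 to -0.02), and neither did Aen, whose sign turned in 5, to 0.077 under library size alone; leaving out single libraries gave -0.070 to 0.036. Mdm2 passed in 5, Bax in 4 and Trp53inp1 in 12. Library size alone gave 4999 genes higher and 3103 lower, against 3740 and 3899 with TMM scaling, and moved the median of all genes by 0.09 on the log2 scale. It left 3 regulators lower (6 with TMM) and 1 stress response gene higher (0 with TMM), and turned the sign of Susd6 (0.014), Phlda1 (0.048), Mdm4 (0.036) and Traf6 (0.029), none of which passed. An adjusted p below 0.01 left 6 further targets higher, since it drops weaker calls. Trp53inp2 turned to -0.0078 without chromosome 14. Leaving out single libraries gave -0.020 to 0.031 for Trp53inp2 and -0.12 to 0.051 for Phlda1; the causes were not tested. Libraries with equal replicate numbers had correlated deviations of -0.06, 0.02 and 0.17, and 2 of 6 libraries correlated best with their own number, which does not show a pairing. A fit with a replicate block called 3811 genes higher and 3975 lower; in it Mdm2 passed (0.12; edgeR adjusted p = 0.0400), so that 4 of the 10 genes were higher. Depth did not limit these genes, each with at least 286 counts in every library.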
